A study of Mus musculus with 2 samples.

Results

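The p53 pathway and the intrinsic and extrinsic apoptosis machinery were examined as a set of 45 genes in RNA of sorted mouse muscle stem cells. The set was given by gene symbol: p53 itself and its regulators, p53 target genes, stress genes of the Gadd45 and polo-like kinase families, the BCL2 family, death receptors, caspases and inhibitors of apoptosis. Each symbol was matched to its Entrez gene ID in the deposited table, and all 45 were found, among 24532 gene IDs in all. They had 82 transcript rows, and a gene's value is the sum of its rows.

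The transcription factor p53 is held low by the ubiquitin ligase MDM2 and its relative MDM4, and on damage or stress it induces genes of cell cycle arrest, repair and cell death. Cell death through mitochondria is decided by the BCL2 family, in which BH3-only proteins relieve or activate the pore formers BAX and BAK and anti-apoptotic members hold them in check. Death receptors such as FAS start the other route through caspase 8, and the IAP proteins restrain caspases. In skeletal muscle, p53 and this machinery are known for their part in the survival of activated stem cells and in myogenic differentiation.

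Male mice on a C57BL/6 background gave 1 double-knockout (dKO) and 1 wild-type (WT) library of freshly isolated cells, and the design text of the series gives the dKO genotype. The dKO mice joined Pax7-CreER, a tamoxifen-inducible Cre recombinase made in cells that express Pax7, with Esr2-/-, which removes estrogen receptor beta, and a further allele that Cre can delete. The treatment protocol, which is the same for both samples, states oral tamoxifen at 20 mg/mL on 5 days in a row in mice of 3 months, and both sample titles carry the mark 6M with no unit explained. The sources used here do not say whether the WT mice carried the Cre, or how many animals were pooled for a library. Cells were sorted from digested limb muscle as lineage-negative, Vcam1+ and Sca1-, with stains for CD31 and CD45. The comparison asks how the transcripts of muscle stem cells of dKO mice differ from those of WT mice.

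The libraries held 43699831 reads in dKO and 36636680 in WT, and after scaling by the trimmed mean of M values (TMM) their effective sizes were 40019638 and 40005777. Counts scaled to effective size (CPM) therefore stand in nearly the same ratio as the raw counts. With 1 library per group there was no replicate check and no test, so a rule of size was used. A gene was called measured when its higher library had 10 counts or more (14885 genes), and it was called 2-fold higher or lower when the log2 ratio of dKO CPM + 1 over WT CPM + 1 was at least 1 in size. Folds are ratios of CPM without a pseudocount, and their 95% intervals (Clopper-Pearson, exact, conditional on the summed count) cover counting error only.

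All 45 members were measured, including the BH3-only genes Bik (28 counts in dKO and 7 in WT) and Hrk (34 and 19). Of them, 2 were higher in dKO by 2-fold, namely the nuclease gene Aen and the death receptor gene Fas, against 1.92% of all measured genes. A further 3 were lower in dKO by 2-fold, namely the BH3-only gene Bmf, the p53-induced gene Trp53inp1 and the caspase gene Casp2, against 4.3% of all measured genes. As shares of the set, 4.44% were higher and 6.67% lower, and with so few genes nothing is read from these shares. Either way, 5 members were 2-fold apart, beside 6.22% of all measured genes. At 1.5-fold, 7 members were higher (Aen, Fas, Gadd45a, Mcl1, Plk2, Plk3 and Pmaip1), which is 15.6% of the set beside 8.98% of all measured genes, and 6 were lower (Bcl2l1, Bmf, Casp2, Casp8, Perp and Trp53inp1), which is 13.3% beside 13.1%. That split depends on the scaling. Library totals gave 2 members higher (Aen and Fas, 4.44%) and 15 lower (33.3%), beside 3.88% and 21.7% of all measured genes. With the trend on abundance and length removed, 4 were higher (Aen, Fas, Hrk and Pmaip1, 8.89%) and 6 lower (13.3%), beside 8.13% and 9.72%. The median log2 ratio of the members was -0.03, beside -0.02 over all measured genes, and 22 members lay above 0 and 23 below. Under library totals alone the median of all measured genes shifted by -0.22, and the split of the members became 0 higher and 4 lower, beside 130 higher and 1040 lower over all measured genes. Members with small differences changed sign there, namely Bad, Bax, Bcl2l2, Birc2, Birc3, Diablo, Ei24, Gadd45b and Gadd45g. With the trend on abundance and length removed, Bax, Bbc3, Birc2, Birc3, Ei24, Gadd45b, Gadd45g, Xiap and Zmat3 did. On GRCm38 the 5 protein-coding genes past 2-fold are Aen at chr7:78895927-78911209 (Entrez 68048), Fas at chr19:34290647-34327775 (Entrez 14102), Bmf at chr2:118528757-118549686 (Entrez 171543), Trp53inp1 at chr4:11156441-11174379 (Entrez 60599) and Casp2 at chr6:42264902-42282508 (Entrez 12366). In bulk RNA, fewer cells of a type and less RNA per cell cannot be told apart, and this holds for each difference given here.

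**Figure D1:**
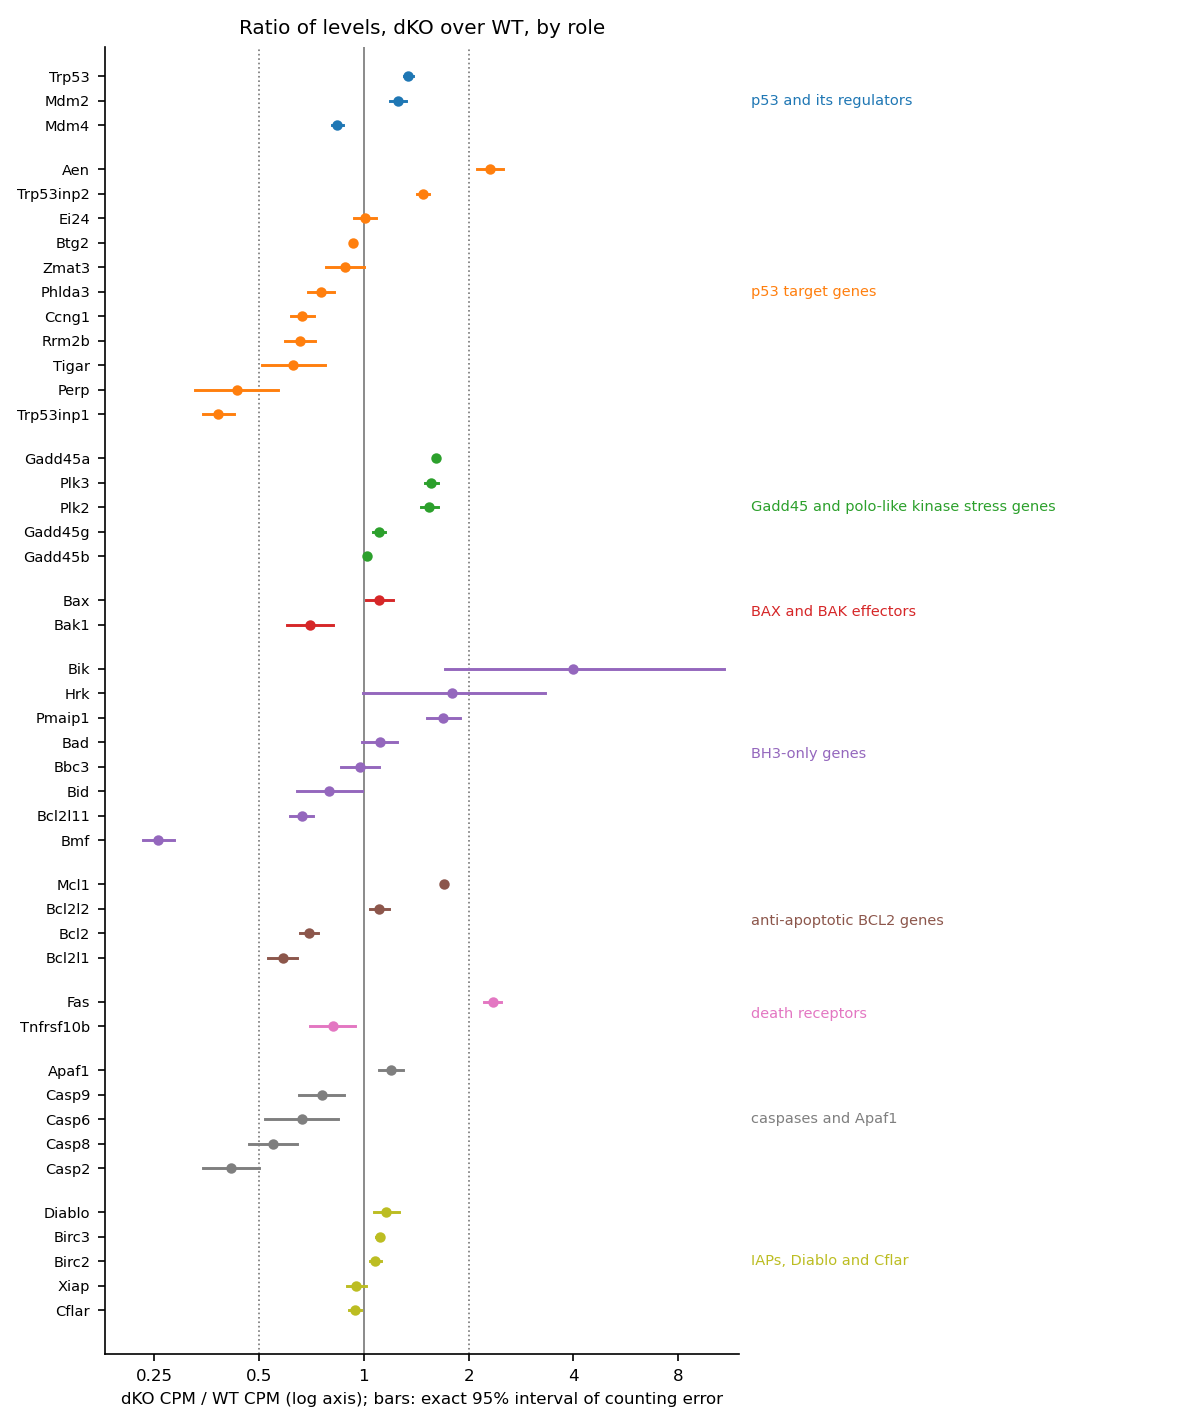
Ratio of dKO CPM to WT CPM for the 45 genes, on a log axis, grouped and coloured by role. Points are ratios and bars are exact 95% intervals of counting error, with dotted lines at 2-fold either way. Aen and Fas lie to the right of the upper line, Bmf, Trp53inp1 and Casp2 to the left of the lower one, and Perp and Bik pass a line by their ratio but not by the log2 ratio with its pseudocount, which sets the call.

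**Figure D2:**
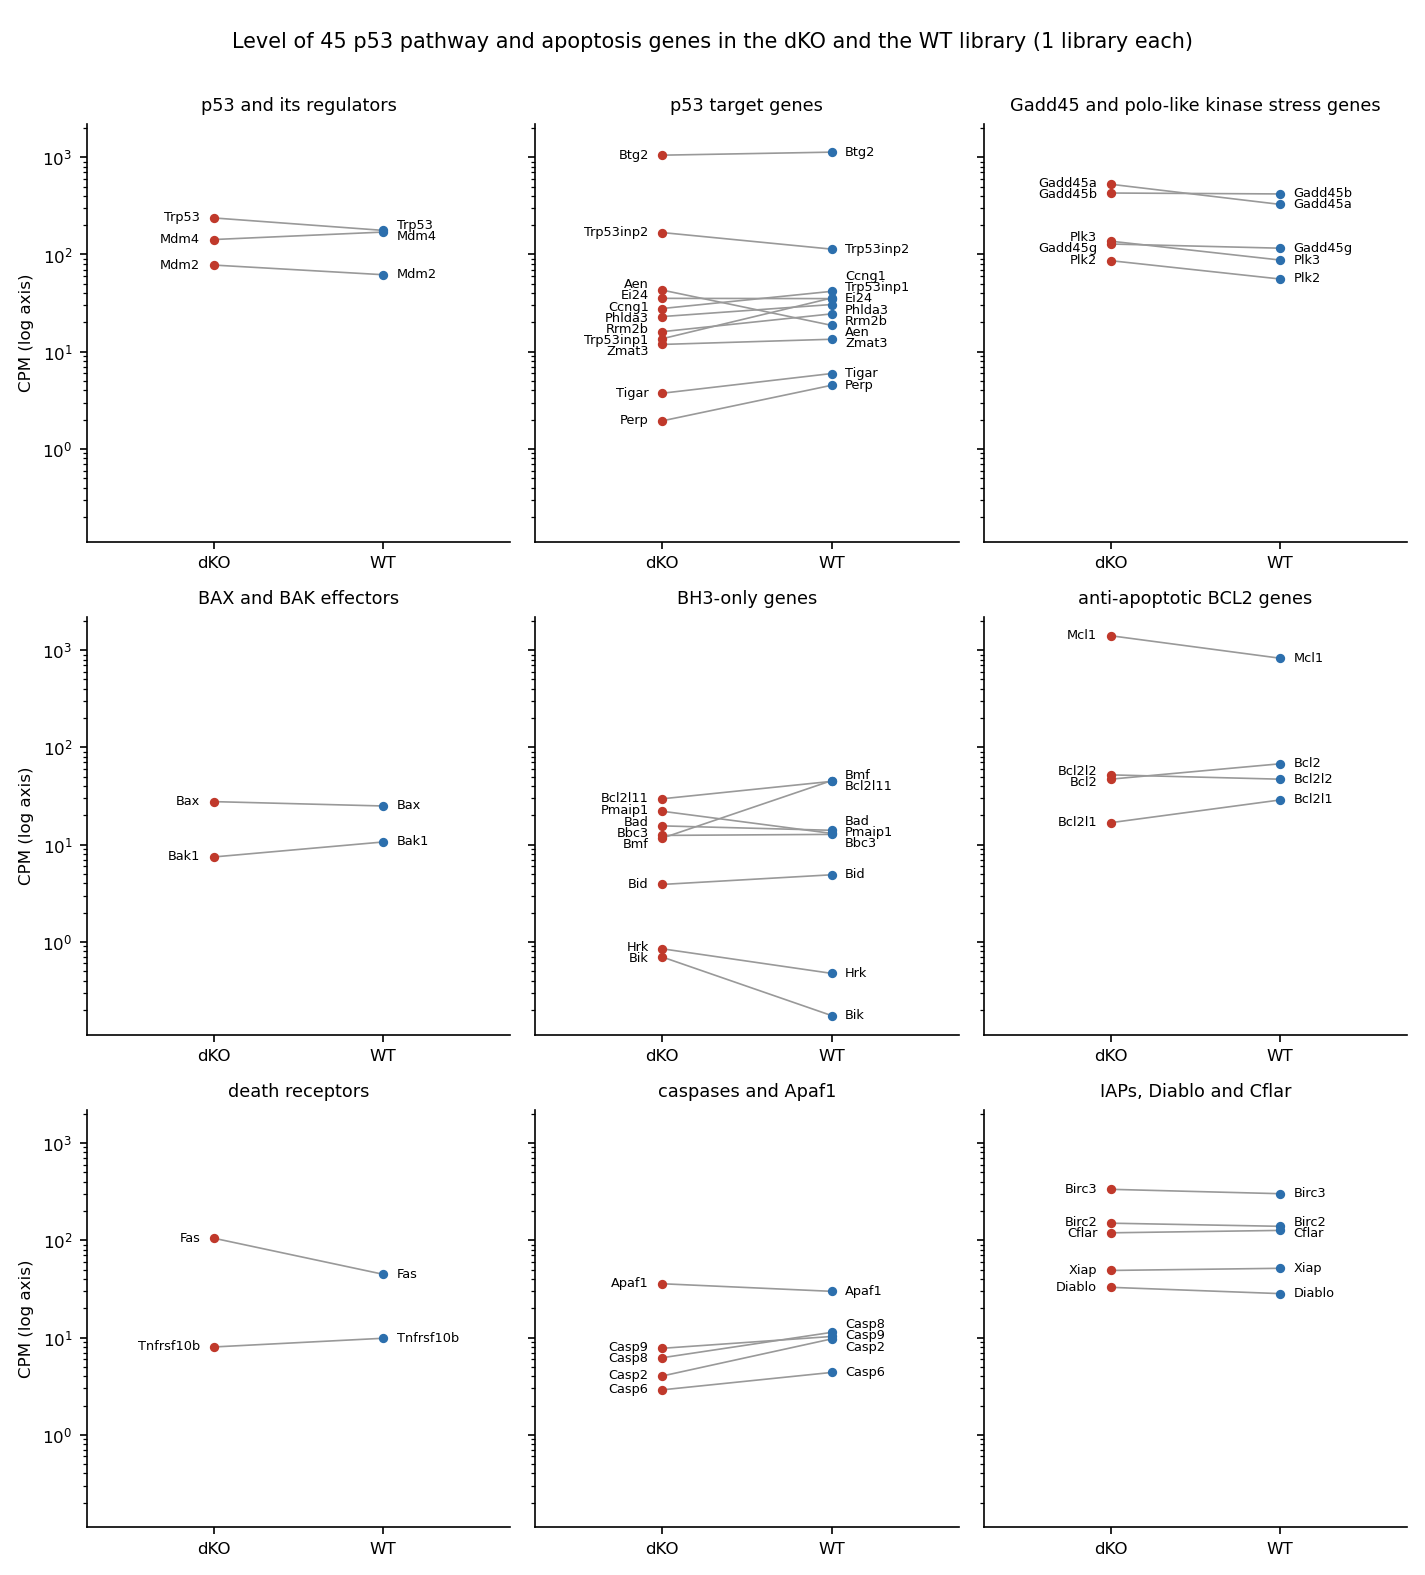
CPM of each member in the dKO (left, red) and the WT library (right, blue), on a log axis, 1 panel per role. Each line joins the 2 values of a gene, and heights of different genes are not corrected for transcript length. The lines of Gadd45a, Plk2, Plk3, Mcl1 and Fas slope to higher dKO values and those of Bmf, Trp53inp1, Perp and Casp2 to lower ones.

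Trp53, the gene of p53, was abundant in both libraries, with 9509 counts (238 CPM) in dKO and 7080 (177 CPM) in WT. Its dKO value was 1.34-fold the WT value (1.30 to 1.38), which is short of the 2-fold line. It was the most abundant of the regulators per transcript length, at 258 TPM in dKO and 246 TPM in WT (TPM are reads per transcript length, scaled to a common sum within a library). Mdm2, both the main inhibitor of p53 and one of its targets, had 3116 counts in dKO and 2479 in WT, a ratio of 1.26 (1.19 to 1.33). Mdm4, the relative that binds p53 without being a strong ligase itself, went the other way with 5703 counts in dKO and 6801 in WT and a ratio of 0.838 (0.809 to 0.868). None of these 3 genes was 2-fold apart. With the trend on abundance and length removed, the log2 ratio of Trp53 was 0.08 instead of 0.42, and that of Mdm2 0.23 instead of 0.32.

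The 11 p53 target genes lay on both sides of 0, with 8 below and 3 above, with a median log2 ratio of -0.40, 1 member higher by 2-fold and 1 lower. Library totals put 9 below 0, and removing the trend on abundance and length left 8. These counts cover this role alone. Of genes in other roles that are called p53 targets or p53-induced here, Fas (1.21), Pmaip1 (0.71), Gadd45a (0.69), Plk2 (0.62) and Mdm2 (0.32) lay above 0. Bbc3 (-0.03) lay below. That naming is not a full list of targets. Other members outside this role lay on both sides, among them Apaf1 (0.25), Bax (0.14), Tnfrsf10b (-0.27), Bid (-0.27) and Casp6 (-0.46). No lean of p53 targets as a whole is therefore read from this role. Aen, a nuclease gene that p53 induces during apoptosis, had 1723 counts in dKO and 748 in WT and was 2.30-fold higher (2.11 to 2.51). Its log2 ratio was 1.16, and 0.92 under library totals. Trp53inp1, whose nuclear product promotes p53 phosphorylation and autophagy, had 545 counts in dKO and 1426 in WT and was 2.62-fold lower (2.37 to 2.89, log2 ratio -1.33). Perp, a desmosome and apoptosis gene, was scarce, with 78 counts in dKO and 181 in WT. It was 2.32-fold lower (1.77 to 3.07) by the plain ratio, but its log2 ratio of -0.91 stayed inside the 2-fold line at a pseudocount of 1 CPM.

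Several textbook p53 targets had values below those of WT without reaching 2-fold. Ccng1, which encodes cyclin G1, had 1114 counts in dKO and 1672 in WT, a ratio of 0.666 (0.617 to 0.719). Rrm2b, the p53-inducible ribonucleotide reductase subunit, had 644 in dKO and 981 in WT, a ratio of 0.656 (0.593 to 0.726). These ratios lie close together although the genes differ in level. Tigar, a regulator of glycolysis, had 150 counts in dKO and 239 in WT, and Phlda3, an AKT inhibitor, 921 and 1224. Zmat3, a zinc-finger RNA-binding protein gene, had 476 counts in dKO and 538 in WT, and the interval of its ratio (0.780 to 1.002) includes 1. Ei24, which encodes an endoplasmic reticulum protein, had nearly equal values, with 1417 counts in dKO and 1408 in WT. Btg2, an antiproliferative gene that also responds early to many stimuli, was the most abundant of the group, with 42008 counts in dKO and 45120 in WT and a ratio of 0.931 (0.918 to 0.943). It reached 660 TPM in dKO and 909 TPM in WT, the highest per-length level of any member in WT. Trp53inp2, a paralogue of Trp53inp1 with a part in autophagy, differed from it in direction, with 6728 counts in dKO and 4544 in WT, a ratio of 1.48 (1.43 to 1.54).

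The promoter windows of members past 2-fold are printed to show which of them match a p53 half-site close to the start. Mdm2 and Ccng1, p53 targets chosen because their windows hold such a match, are printed for comparison. They are RefSeq windows on GRCm38.p6, the assembly that mm10 names, of 250 bases before and 50 after the annotated start, and for a gene with several starts the most upstream one was taken. Capitals mark matches to the decamer of a p53 half-site, searched on both strands. A half-site is only part of a full p53 response element, and sequence outside the windows, such as introns further in, was not searched. The positions are chr7:78895677-78895976, plus strand for Aen, chr19:34290409-34290708, plus strand for Fas, chr2:118549637-118549936, minus strand for Bmf, chr6:42264735-42265034, plus strand for Casp2, chr10:117710709-117711008, minus strand for Mdm2 and chr11:40755237-40755536, minus strand for Ccng1. Trp53inp1 had no entry.
Aen: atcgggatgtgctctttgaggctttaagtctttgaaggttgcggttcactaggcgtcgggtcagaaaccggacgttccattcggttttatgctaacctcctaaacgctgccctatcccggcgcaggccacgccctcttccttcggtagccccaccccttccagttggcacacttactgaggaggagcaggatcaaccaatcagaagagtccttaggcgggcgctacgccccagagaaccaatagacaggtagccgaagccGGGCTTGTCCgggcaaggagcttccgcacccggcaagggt
Fas: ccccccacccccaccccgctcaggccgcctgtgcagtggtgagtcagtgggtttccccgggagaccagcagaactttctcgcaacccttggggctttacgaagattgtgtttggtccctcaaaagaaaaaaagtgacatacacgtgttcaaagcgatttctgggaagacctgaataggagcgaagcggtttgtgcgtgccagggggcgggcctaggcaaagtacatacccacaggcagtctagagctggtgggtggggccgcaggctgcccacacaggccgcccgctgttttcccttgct
Bmf: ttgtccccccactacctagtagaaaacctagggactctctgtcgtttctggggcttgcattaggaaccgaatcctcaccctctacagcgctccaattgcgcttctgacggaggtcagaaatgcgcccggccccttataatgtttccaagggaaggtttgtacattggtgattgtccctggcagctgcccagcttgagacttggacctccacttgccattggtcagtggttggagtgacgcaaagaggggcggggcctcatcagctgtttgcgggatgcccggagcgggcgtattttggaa
Casp2: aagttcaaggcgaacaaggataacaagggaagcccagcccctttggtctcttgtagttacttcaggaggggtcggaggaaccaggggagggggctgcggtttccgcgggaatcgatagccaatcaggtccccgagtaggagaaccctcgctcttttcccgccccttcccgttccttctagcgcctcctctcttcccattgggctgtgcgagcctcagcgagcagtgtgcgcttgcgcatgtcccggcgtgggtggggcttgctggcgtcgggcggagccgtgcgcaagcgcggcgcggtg
Mdm2: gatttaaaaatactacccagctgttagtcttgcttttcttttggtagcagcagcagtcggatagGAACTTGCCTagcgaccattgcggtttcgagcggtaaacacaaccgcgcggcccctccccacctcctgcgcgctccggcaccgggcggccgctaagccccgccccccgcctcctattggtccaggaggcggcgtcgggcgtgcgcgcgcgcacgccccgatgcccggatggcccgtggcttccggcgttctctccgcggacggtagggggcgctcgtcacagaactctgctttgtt
Ccng1: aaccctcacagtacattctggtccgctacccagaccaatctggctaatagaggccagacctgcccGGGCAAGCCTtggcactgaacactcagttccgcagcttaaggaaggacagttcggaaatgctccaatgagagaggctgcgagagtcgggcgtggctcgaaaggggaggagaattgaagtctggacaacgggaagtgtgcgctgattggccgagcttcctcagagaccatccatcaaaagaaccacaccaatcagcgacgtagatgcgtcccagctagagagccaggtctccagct
Each of the Aen, Mdm2 and Ccng1 windows held 1 match, with its first base at position 11 from the start in Aen, -186 in Mdm2 and -185 in Ccng1, and those of Fas, Bmf and Casp2 held 0. The 3 printed genes with a match had ratios of 2.30, 1.26 and 0.666 in dKO over WT. Mdm2 and Ccng1 were chosen for their match, so nothing is read from these 3. Over all 32851 windows 8.36% held the decamer, and among 51 windows of the 38 members with an entry 10 did (19.6%), in 9 genes: Aen, Bax, Birc2, Bmf, Ccng1, Ei24, Gadd45a, Mdm2 and Trp53. The Bmf match lay in the window of another start. The AP-1 motif TGANTCA was found on either strand in 2 member windows, those of Fas and 1 of Mdm4 (7.81% of all windows), and the FoxO motif GTAAACA in 3, of Bbc3, Bcl2l11 and Mdm2 (3.65%). The nuclear receptor motif AGGTCA was in 6 member windows, of Bcl2l1, Bcl2l2, Bmf, Btg2, Mdm4 and Xiap (16.3% of all windows). The Aen window held none of the motifs AP-1, FoxO or AGGTCA. These are matches of letters, with no measure of binding.

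The Gadd45 and polo-like kinase stress genes all lay above 0 under TMM, with a median log2 ratio of 0.62. Under library totals, and also after removing the trend, 3 of the 5 lay above 0 and 2, Gadd45b and Gadd45g, below. Gadd45a, a growth arrest gene that p53 can induce, had 21101 counts in dKO and 13100 in WT, a ratio of 1.61 (1.58 to 1.65), and at 835 TPM in dKO and 664 TPM in WT it was the top member per length in dKO. Plk2, a polo-like kinase gene and p53 target, had 3457 in dKO and 2240 in WT, a ratio of 1.54 (1.46 to 1.63). Plk3, a stress-responsive kinase gene, had 5484 in dKO and 3510 in WT, a ratio of 1.56 (1.497 to 1.63). These 3 were past 1.5-fold under TMM, and 0 were past 2-fold. None of the 3 was past 1.5-fold under library totals, with log2 ratios of 0.43 for Gadd45a, 0.37 for Plk2 and 0.39 for Plk3, or after removing the trend, with 0.19, 0.49 and 0.42. Gadd45b, which also answers to NF-kB and TGF-beta, had 17150 counts in dKO and 16776 in WT, a ratio of 1.02, and Gadd45g had 5130 and 4645, a ratio of 1.10 (1.06 to 1.15).

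Neither pore former was past 1.5-fold. Bax had 1108 counts in dKO and 999 in WT, a ratio of 1.11 (1.02 to 1.21), and Bak1 had 299 and 426, a ratio of 0.702 (0.603 to 0.815). Per transcript length, Bax was the more abundant, with 61.7 TPM in dKO and 71.4 in WT, beside 7.23 and 13.2 for Bak1. TPM is used here only to set genes of a library beside each other, since it is not scaled by TMM. Bax, Bak1, Bad, Bid, Bcl2l2 and Diablo each share at least 100 exon bases with another protein-coding gene, and how reads there were assigned is unknown.

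Among the 8 BH3-only genes, whose products sense distinct forms of stress, 4 lay above 0 and 4 below, with 1 lower by 2-fold and 0 higher. Bmf, whose product is released from the cytoskeleton upon loss of attachment, had 467 counts in dKO and 1820 in WT. At 11.7 CPM in dKO and 45.5 CPM in WT it was 3.90-fold lower (3.52 to 4.33, log2 ratio -1.88), further from 0 than any other member, and it stayed past 2-fold under every alternative run at that threshold. Both of its rows with at least 10 counts were lower, with 443 counts in dKO and 1610 in WT for the row of 4641 bases and 24 and 207 for that of 4593 bases. Bcl2l11, the gene of BIM, which like Bmf can be induced by FoxO factors, had 1185 counts in dKO and 1789 in WT, a ratio of 0.662 (0.615 to 0.713). Pmaip1, the gene of the p53 target NOXA, which binds MCL1, went the other way with 882 counts in dKO and 522 in WT, a ratio of 1.69 (1.51 to 1.89). Bbc3, the gene of PUMA and the chief p53-induced killer, was level with 498 counts in dKO and 510 in WT, a ratio of 0.976 (0.861 to 1.11).

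The other BH3-only genes were level or scarce. Bad, which growth factor signals control by phosphorylation, had 624 counts in dKO and 562 in WT, with an interval of 0.989 to 1.25 for its ratio. Bid, the link from caspase 8 to mitochondria, had 156 in dKO and 196 in WT, a ratio of 0.796 (0.641 to 0.987). Bik, with 28 counts in dKO and 7 in WT, had an interval of 1.71 to 10.8 for its ratio, and its log2 ratio ran from 0.53 to 1.54 when the pseudocount was lowered from 1 to 0.1 CPM. The interval of Hrk (0.992 to 3.32) includes 1. Among the BH3-only genes, Bad held the highest per-length level in both libraries (27.6 TPM in dKO and 30.8 in WT). Bmf made up 6.17% of the summed BH3-only TPM in dKO and 21.5% in WT, and Pmaip1 made up 20.4% in dKO and 10.8% in WT.

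Mcl1, the short-lived anti-apoptotic member, dominated its group. It had 56221 counts (1405 CPM) in dKO and 33009 (825 CPM) in WT, a ratio of 1.70 (1.68 to 1.73), and it held 93.2% of the summed anti-apoptotic TPM in dKO and 87.3% in WT. Its log2 ratio of 0.77 was 0.36 once the trend was removed. Bcl2, the founding member, had 1886 counts in dKO and 2712 in WT, a ratio of 0.695 (0.655 to 0.738). Bcl2l1, the gene of BCL-XL, had 673 in dKO and 1152 in WT and was 1.71-fold lower (1.56 to 1.89). Bcl2l2, the gene of BCL-W, was level, with 2087 in dKO and 1884 in WT. Mcl1 thus had more reads in dKO while Bcl2 and Bcl2l1 had fewer, and 0 of the 4 genes were 2-fold apart. Within the dKO library the summed TPM was 838 for the anti-apoptotic genes beside 79.0 for the BH3-only genes, and within the WT library it was 673 beside 113.

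**Figure D3:**
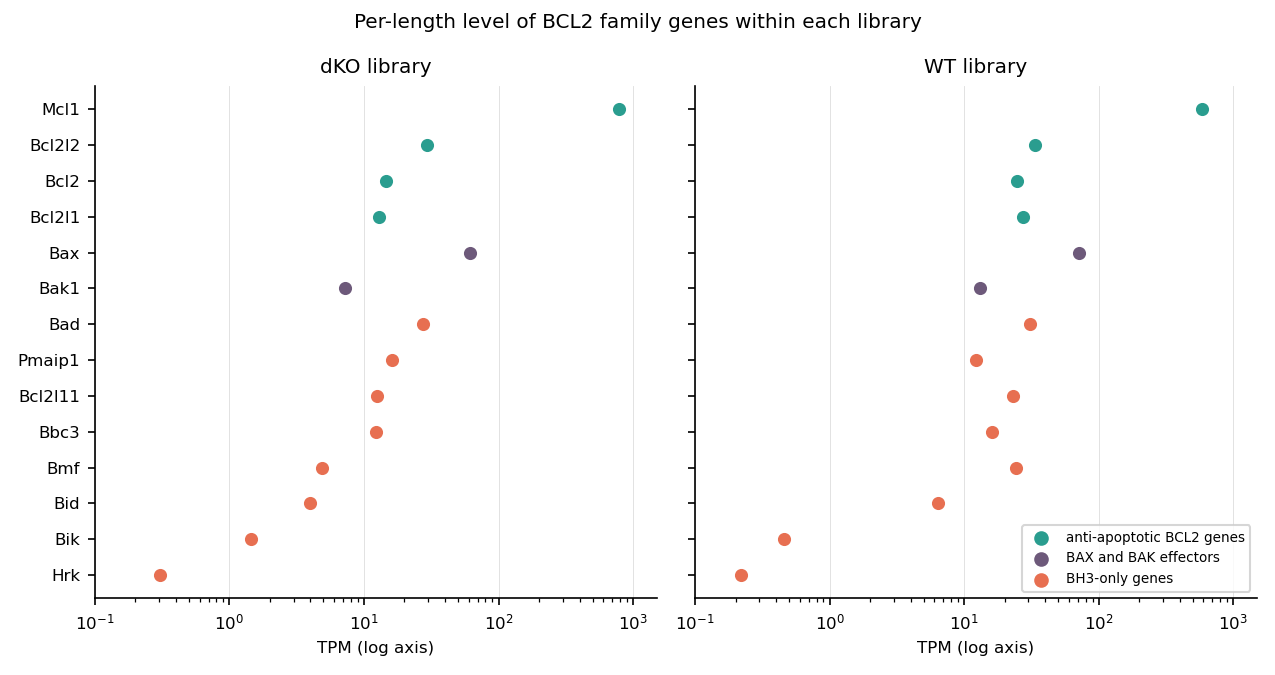
Per-length level (TPM, log axis) of the 14 BCL2 family members in the dKO library (left) and the WT library (right), coloured by role. Mcl1 stands apart from the other genes of each library, at 781 TPM in dKO and 588 in WT, and Bmf lies below Bbc3 within dKO (4.87 and 12.2 TPM) and above it within WT (24.4 and 16.02 TPM).

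Fas, the receptor gene for FAS ligand and a known p53 and NF-kB target, was the member with the highest log2 ratio. It had 4200 counts (105 CPM) in dKO and 1788 (44.7 CPM) in WT and was 2.35-fold higher (2.22 to 2.48, log2 ratio 1.21). Both of its rows were higher, with 4027 counts in dKO and 1711 in WT for the row of 1486 bases and 173 and 77 for that of 555 bases. The log2 ratio was 0.96 by library totals and 0.97 after removal of the trend, just inside the 2-fold line in both. Tnfrsf10b, which encodes the only TRAIL death receptor of the mouse, had 320 counts in dKO and 393 in WT, a ratio of 0.814 (0.700 to 0.946). The 2 death receptor genes thus lay on opposite sides of 0. The ligand genes were scarce, with 16 counts in dKO and 3 in WT for Fasl and 60 and 77 for Tnfsf10.

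The 4 caspase genes of the set lay below 0 in each of the scalings tried, while Apaf1 lay above. Casp2, an initiator caspase gene linked to p53 through the PIDDosome, had 161 counts in dKO and 387 in WT and was 2.40-fold lower (1.996 to 2.91). Its log2 ratio of -1.09 was -0.87 with the trend removed and -0.70 at a pseudocount of 5 CPM. Casp8, the initiator of the death receptor route, had 248 counts in dKO and 452 in WT and was 1.82-fold lower (1.56 to 2.14). Casp6, an effector caspase gene, had 116 in dKO and 175 in WT, and Casp9, the initiator of the mitochondrial route, had 310 and 410. Apaf1, the scaffold of the apoptosome that activates caspase 9, had 1429 in dKO and 1194 in WT, a ratio of 1.20 (1.11 to 1.29). All of these were low genes: the highest per-length level among them was that of Apaf1, at 10.6 TPM in dKO and 11.3 in WT.

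The inhibitors of apoptosis, with their antagonist Diablo, had log2 ratios from -0.08 for Cflar to 0.21 for Diablo by the sum of rows, and 0 of 5 were past 1.5-fold. By the row with the highest mean share alone, Birc2 was at -0.84 and Xiap at -0.79, both past 1.5-fold. Birc3, a cIAP gene that NF-kB induces, was the most abundant, with 13362 counts in dKO and 12040 in WT, a ratio of 1.11 (1.08 to 1.14). Birc2, its neighbour on chromosome 9, had 5994 in dKO and 5563 in WT, and Xiap, the direct caspase inhibitor, had 1958 and 2059. Cflar, whose product FLIP blocks caspase 8 at death receptors, had 4772 counts in dKO and 5050 in WT, a ratio of 0.945 (0.908 to 0.983). Diablo, the mitochondrial antagonist of IAPs, had 1313 in dKO and 1131 in WT, a ratio of 1.16 (1.07 to 1.26). Under library totals all 5 lay below 0.

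Transcript rows of a gene often differed in their ratios. Of 18 members with several rows of at least 10 counts, 11 had rows 2-fold apart in their log2 ratios (61.1%, beside 57.3% of 3902 such genes over the table), and 11 had rows on both sides of 0 (61.1%, beside 66.3%). The rows carry a length but no transcript name, so they are called by length here. For Bcl2l1, the row of 2627 bases had 306 counts in dKO and 1152 in WT, while the row of 2421 bases had 364 in dKO and 0 in WT, at least 121-fold higher against a floor of 3 counts per library. For Casp9, the row of 3789 bases had 230 counts in dKO and 33 in WT and the row of 3899 bases 80 and 377. Both genes thus had most of their dKO reads in the shorter of these rows and most of their WT reads in the longer, with sums that differed less than 2-fold. In Birc2 the row of 3376 bases had 3546 counts in dKO and 1139 in WT and the row of 3332 bases 2448 and 4424.

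Several of these genes had a row at 0 in 1 library. Xiap had 576 counts in dKO and 0 in WT in its row of 5772 bases, at least 192-fold higher, and 1043 in dKO and 1829 in WT in its row of 6678 bases. Trp53inp1 had 0 counts in dKO and 274 in WT in its row of 5430 bases, at least 91.4-fold lower, but its main row of 5392 bases was lower as well, with 545 in dKO and 1152 in WT. Its call therefore did not rest on the row at 0. Aen rested more on 1 row: that of 2466 bases had 997 counts in dKO and 197 in WT, a ratio of 5.06 (4.34 to 5.92), and that of 2580 bases 726 and 551, a ratio of 1.32 (1.18 to 1.47). Apaf1 had 0 in dKO and 184 in WT in its row of 6514 bases and 1429 and 1010 in that of 6557 bases. Cflar had 18 counts in dKO and 467 in WT in its row of 6966 bases, while its main row of 7238 bases was level with 3580 and 3542. Rows of Mdm4 ran from a log2 ratio of -1.47 to 0.67, those of Bcl2l11 from -1.84 to 0.70 and those of Bcl2 from -0.57 to 0.58. In Ei24 (-0.03 and 0.62) and Bad (-0.11 and 0.32) the rows differed in sign by less than 2-fold.

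**Figure D4:**
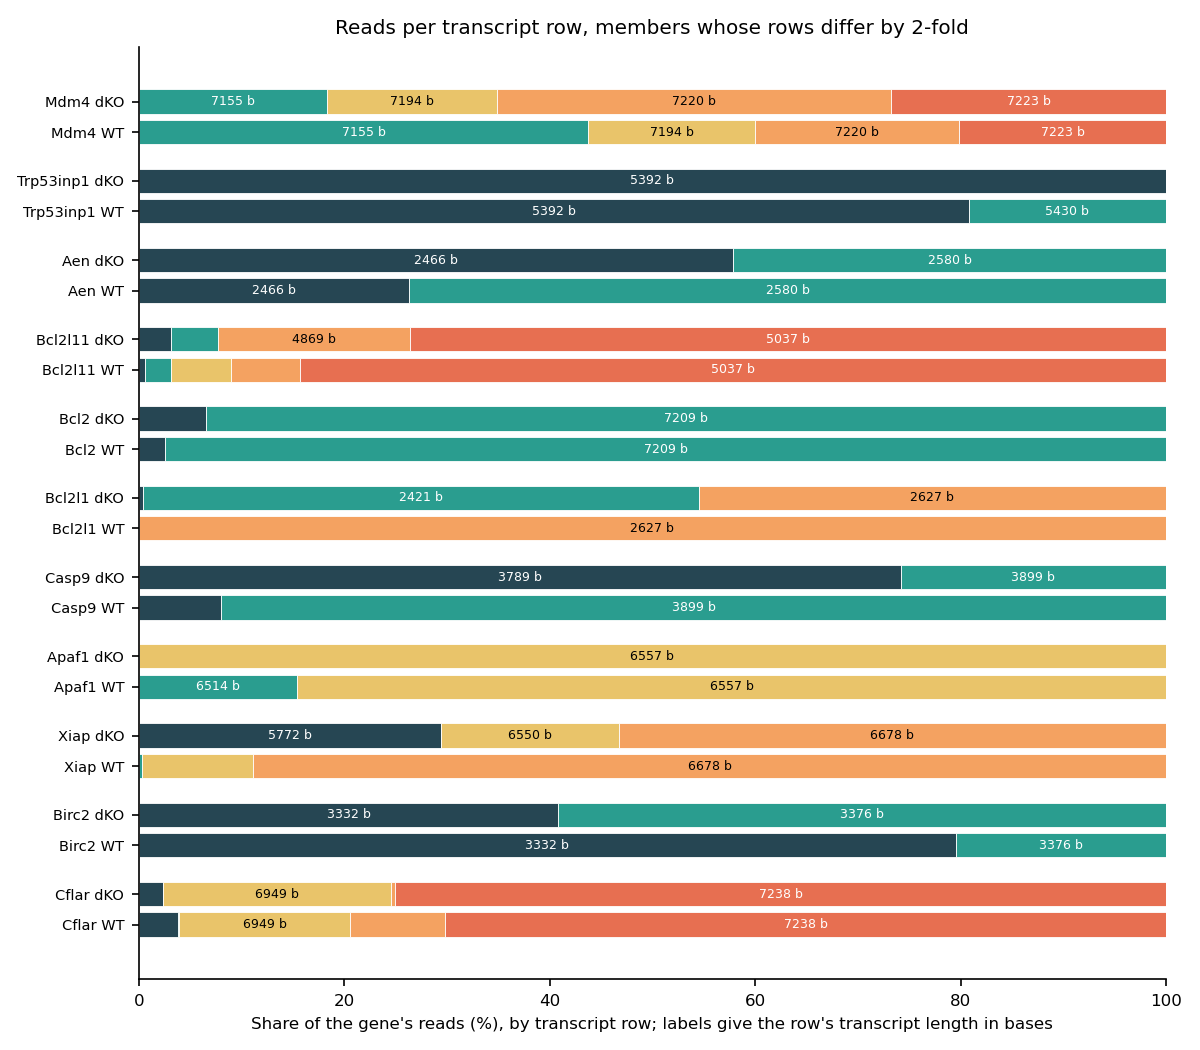
Share of a gene's reads in each of its transcript rows, in percent, for the 11 members whose rows were 2-fold apart in their log2 ratios, with the dKO bar above the WT bar. Segments are rows in order of length, and labels give the length in bases. The segment of 2627 bases holds all Bcl2l1 reads in WT and 45.5% in dKO, and that of 3789 bases holds 74.2% of Casp9 reads in dKO and 8.05% in WT.

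Other genes of the p53 pathway lay on both sides of 0. Of 38 measured genes, out of 39 listed, 1 was 2-fold higher, 0 were lower, 23 lay above 0 and the median log2 ratio was 0.07. The gene past the line was Sesn2, a stress-induced sestrin gene, with 2507 counts in dKO and 830 in WT (3.02-fold, 2.79 to 3.27). Its paralogue Sesn1, on the same list, had 1509 and 1703. Cdkn1a, which encodes the arrest factor p21 and is the standard readout of p53, had 23103 counts in dKO and 14689 in WT, a ratio of 1.57 (1.54 to 1.61). Its log2 ratio of 0.65 was 0.40 under library totals and 0.22 once the trend was removed. Sesn1 and Cdkn1a were named after their values were seen. Of 37 measured apoptosis genes beyond the members, out of 40 listed, 0 were 2-fold apart in either direction and the median log2 ratio was -0.0004. The highest were Bok, a BAX relative, with 3635 counts in dKO and 2032 in WT, and Tnfrsf1a, a TNF receptor gene, with 19267 and 11208. The lowest were Bcl2a1b, an anti-apoptotic gene of blood cells with near-identical copies, with 10 counts in dKO and 49 in WT, and Dffa, the inhibitor of the apoptotic DNase, with 108 and 218.

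The gate should remove endothelial, immune and fibro-adipogenic cells. Their measured markers were lower in dKO apart from Cd34, while stem cell markers were present in both libraries. The 15 endothelial markers were all below 0, 12 of them past 2-fold, at a summed level of 393 CPM in dKO and 892 CPM in WT. Of 16 measured immune markers, out of 17 listed, 16 lay below 0 and 14 passed the 2-fold line, at summed levels of 65.8 CPM in dKO and 215 CPM in WT and with S100a8 and S100a9 at 0 in dKO. Of 8 fibro-adipogenic markers 7 lay below 0 and 5 were lower by 2-fold (summed, 1110 CPM in dKO and 1600 CPM in WT). Cd34, the 1 marker of these not below 0 (log2 ratio 0.03), is not limited to fibro-adipogenic cells. It gave 482 CPM of that sum in dKO and 473 in WT. Of 12 stem cell markers 6 lay above 0 and 6 below, with a median log2 ratio of 0.11, or -0.24 with the trend removed. Of them 1 was higher by 2-fold, Myod1, and Pax7 had 12620 counts in dKO and 22335 in WT. Summed stem cell marker levels were 12038 CPM in dKO and 9176 CPM in WT, of which Sdc4 alone gave 4872 and 2980. These shifts stand beside the lower values of Bmf, Trp53inp1, Casp2 and Casp8 and the higher ones of Fas and Aen, and their part in them was not tested. The 16 dissociation response genes had a median log2 ratio of -0.08 and 0 were 2-fold apart. The 9 myofibre markers had a median of -0.37.

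Level and length also moved with the ratios over the whole table. Median log2 ratios of measured genes ran from -0.16 in the lowest eighth by abundance to 0.29 in the highest, and from 0.14 in the shortest eighth by transcript length to -0.15 in the longest. Gadd45a, Mcl1 and Trp53, which had ratios above 1, are abundant, and the caspase genes, which lay below 0, are scarce. Other members did not follow this pattern. Btg2 and Gadd45b are abundant as well, with log2 ratios of -0.10 and 0.03. Bik and Hrk are scarce and had log2 ratios of 0.53 and 0.33, on few counts. With the trend on abundance and length removed, the log2 ratios were -1.78 for Bmf, -1.19 for Trp53inp1 and 1.12 for Aen, all still past 2-fold. Those of Fas (0.97) and Casp2 (-0.87) came inside the 2-fold line, and that of Gadd45a was 0.19 instead of 0.69.

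**Figure D5:**
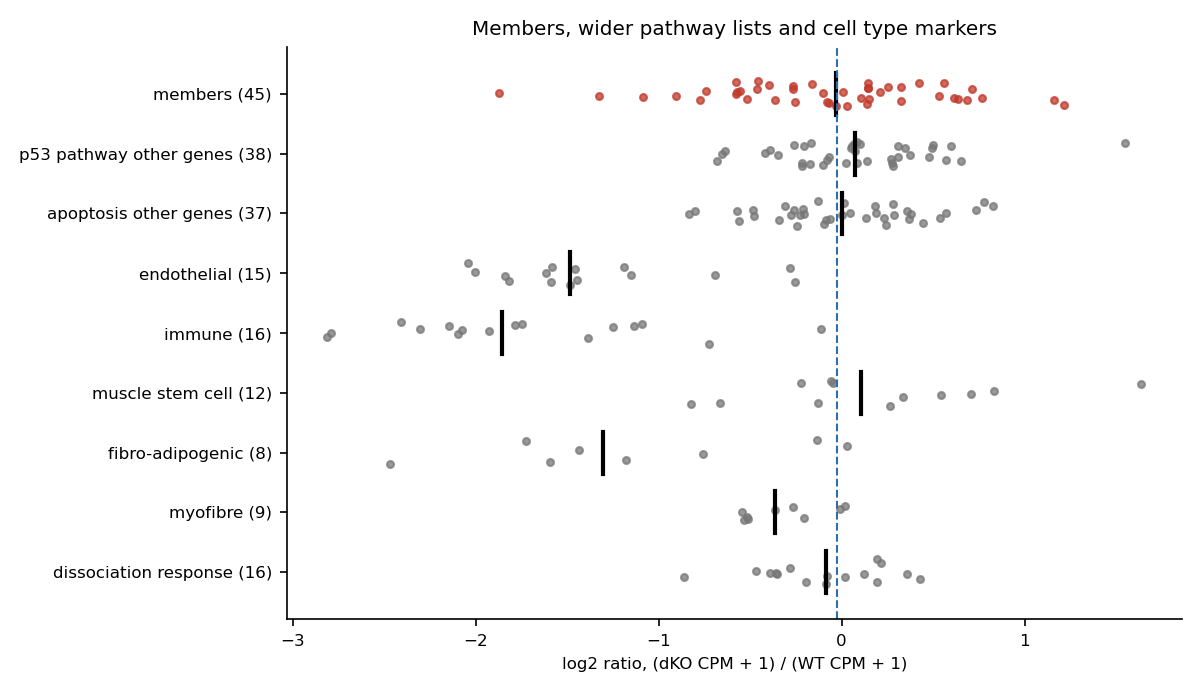
Log2 ratio of dKO CPM + 1 over WT CPM + 1 for measured genes of the members, the wider pathway lists and the marker lists, with the number of genes in brackets. Points are genes, black bars are list medians and the dashed line is the median of all measured genes (-0.02). The members centre on that line, at -0.03, while the endothelial (-1.48), immune (-1.86) and fibro-adipogenic (-1.31) markers lie to its left.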

How the data were processed

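The deposited table gives whole-number read counts for 36780 transcript rows, each with its length and Entrez gene ID. The submitters' processing notes name TopHat2 2.0.9, bedtools, edgeR and mm10 without a role or order. The sources used here state neither the annotation, nor how reads were assigned to rows, nor whether strand was used, so overlapping or antisense genes cannot be told apart: Bad, Bak1, Bax, Bcl2l2, Bid and Diablo are the 6 members that share at least 100 exon bases with another protein-coding gene (GENCODE M21). Of 24532 gene IDs, 24462 matched a RefSeq symbol. The Cre-deletable gene is not reported here.

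Rows were summed per gene. Library sizes were scaled with TMM (edgeR 4.0.16, R 4.3.3), with factors of 0.916 for dKO and 1.09 for WT. Intervals were computed in scipy 1.17.1 and cover counting error only. The trend on mean abundance and length was fitted by lowess (statsmodels 0.14.6) over measured genes. The size rule and intervals were run on simulated counts that held counting error only and were scaled by library totals. That run says nothing of the spread between animals. Members, gene lists and rules were chosen with earlier results of these data known. Values were given for members past 1.5-fold, for the highest and lowest log2 ratio and the highest TPM of each role, for 6 core genes, and for rows that differ in sign or by 2-fold. Wider-list genes were named past 2-fold, or else the 2 highest and 2 lowest. Alternatives were median-ratio scaling, library totals, the row with the highest mean share, the trend removed, pseudocounts of 0.1 and 5 CPM, no count floor or one of 100, and a 1.5-fold or 4-fold rule. The 1.5-fold rule was also run by library totals and without the trend, which was chosen after seeing the data.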

Additional observations from a re-analysis of the deposited data

How the results depend on the processing

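The 2 members 2-fold higher in dKO were 0 under library totals, 1 by the row with the highest mean share, 1 with the trend removed, 7 by a 1.5-fold rule (8.98% of all measured genes) and 0 by a 4-fold rule. The 3 lower members were 6 by the row with the highest mean share, 6 by the 1.5-fold rule (13.1% of all measured genes) and 0 by the 4-fold rule. For the row with the highest mean share, the share of all measured genes is not given, so nothing is read from its counts. Other alternatives chosen after seeing the data joined the 1.5-fold rule to another scaling. It gave 2 higher and 15 lower under library totals (3.88% and 21.7% of all measured genes). With the trend removed it gave 4 higher and 6 lower (8.13% and 9.72%). The members' median log2 ratio of -0.03 was -0.27 under library totals, where that of all measured genes was -0.24. Single members crossed the 2-fold line as follows. Fas and Aen were lost and Perp gained under library totals. Aen was lost (0.37) by the row with the highest mean share, and Bcl2l1 (-1.78), Casp9 (-1.80) and Mdm4 (-1.47) were gained. Fas and Casp2 were lost with the trend removed, Casp2 at a pseudocount of 5 CPM, and Bik and Perp were gained at 0.1 CPM. Bmf and Trp53inp1 stayed past 2-fold in each of these, and none of the 5 called members changed sign. Median-ratio scaling, no count floor and a floor of 100 moved no call. No paired analysis was possible because each group has 1 library, and for the same reason no library could be left out. Counting depth limits Bik and Hrk, which had fewer than 40 counts in each library.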
